A study of Rattus norvegicus with 30 samples.

Results

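Rab proteins are small GTPases, molecular switches that sit on membranes and decide where transport vesicles form, travel and dock. This account covers every gene of the array whose platform symbol is Rab followed by a number and an optional letter, such as Rab1a, Rab5c or Rab27b. Rab-interacting proteins were left out, and a probeset that matched several symbols was not used. The rule is one of names and used no measured value. It found 56 of the 14217 genes named on the array, read by 97 of 31042 probesets, and all 56 matched a current rat gene.

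Each Rab marks a compartment. In its GTP-bound state it recruits effector proteins that tether, move or fuse a vesicle. Exchange factors load it with GTP, GTPase-activating proteins switch it off, and a lipid tail lets it enter the membrane. Hepatocytes rely on this machinery to secrete plasma proteins and lipoproteins, to recycle receptors from the surface, to carry material across the cell to the bile canaliculus and to feed lysosomes.

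Hepatocytes of male Sprague Dawley rats, bought frozen, were plated on collagen under Matrigel and dosed on day 3 of culture. Sodium valproate, an antiepileptic fatty acid that inhibits histone deacetylases, was dissolved in water, and water alone was the vehicle. The groups were water, 0.5 mM valproate and 10 mM valproate, each harvested at 24 h and at 48 h, with 5 cultures in each of the 6 groups. No genetic change was made, and all groups shared strain, sex, supplier, matrix and day of dosing. No label gives the number of donor animals, so the p-values rest on the spread of culture wells, and a plate effect cannot be told apart from a group effect if a plate held 1 group.

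The 30 arrays gave linear MAS5 signals scaled to 1 level, with trimmed means of 1499.99 to 1500.7. Replicates correlated at a median of 0.969, and no pair of arrays exceeded 0.976. As a sign of RNA quality, the 3' actin control probeset was divided by the 5' one, and the log2 of that ratio had a median of 1.37. It was above 2 on 3 arrays, which were replicates 3 and 4 of 0.5 mM at 48 h (2.77 and 2.23) and replicate 3 of water at 24 h (2.76). Hepatocyte markers were bright in every group. Their summed signal was 253400 to 310100 at 10 mM and 303200 to 392500 in water at 24 h, and 5 of 6 passed the test as lower at 10 mM at that time. At 48 h, 2 of 6 were called lower and 1 higher.

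Of the 56 Rab genes, 48 had a probeset above the filter on dim signal and were tested. Each was read by its brightest probeset, and no probe's level was set against another's. Of the tested genes, 0 had passed the filter while their mean over the water arrays of both times lay below it. At 24 h alone the log2 water means of Rab3b (7.27) and Rab27b (7.15) lay below the filter level of 7.39. Changes are differences of log2(signal + 16), given with the fitted standard error (SE) for 5 arrays per group, and a positive change means higher in the first-named group. A gene was called when limma's test gave a Benjamini-Hochberg adjusted p under 0.05 over all 21729 probesets tested.

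The promoters of 3 members are shown as examples. They are Rab30, called lower at 0.5 mM and higher at 10 mM, Rab40b, called higher at both doses, and Rab43, which had the steepest fall at 10 mM against water. No window was found for Rab26, which had the highest change against water of the tested members, or for Rab37. Windows of Rab27a, Rab40c, Rab4b and Rab3b, which also reached a change of 1 against water, were searched but are not printed. Each runs from 250 bases before to 50 bases after the annotated start on build GRCr8 and is written 5' to 3' on the strand of the gene. Capitals mark matches, on either strand, to the GC box (GGGCGG or CCGCCC) and the CCAAT box (CCAAT or ATTGG). Rab30, at chr1:156215887-156216186 on the plus strand, has a second annotated start that is not printed. Rab40b lies at chr10:107157326-107157625 and Rab43 at chr4:121826462-121826761, both on the minus strand.
Rab30: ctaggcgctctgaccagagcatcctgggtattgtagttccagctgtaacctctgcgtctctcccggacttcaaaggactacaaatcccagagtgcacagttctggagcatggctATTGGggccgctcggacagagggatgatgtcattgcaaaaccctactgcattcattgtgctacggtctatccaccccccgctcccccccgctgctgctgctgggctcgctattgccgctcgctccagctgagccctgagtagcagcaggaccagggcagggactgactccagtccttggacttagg
Rab40b: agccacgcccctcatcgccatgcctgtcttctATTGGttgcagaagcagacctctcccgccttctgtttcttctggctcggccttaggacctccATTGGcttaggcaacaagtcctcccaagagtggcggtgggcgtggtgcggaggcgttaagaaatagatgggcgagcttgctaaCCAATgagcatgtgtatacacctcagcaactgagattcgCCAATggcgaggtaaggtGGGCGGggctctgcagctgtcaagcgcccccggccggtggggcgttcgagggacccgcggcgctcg
Rab43: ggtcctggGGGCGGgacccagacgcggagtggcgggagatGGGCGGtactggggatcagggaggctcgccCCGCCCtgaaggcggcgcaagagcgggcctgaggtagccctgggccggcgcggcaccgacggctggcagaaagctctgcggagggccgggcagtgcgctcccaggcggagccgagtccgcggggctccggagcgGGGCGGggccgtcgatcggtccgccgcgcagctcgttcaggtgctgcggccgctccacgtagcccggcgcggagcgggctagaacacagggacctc

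The Rab43 window holds 4 GC boxes and 39 CpG dinucleotides, the Rab40b window 1 GC box, 4 CCAAT boxes and 21 CpG, and the Rab30 window 1 CCAAT box, no GC box and 11 CpG. Across the family, 45 genes matched the table and gave 46 windows. A GC box stood in 78.26% of these windows and in 33.06% of all 33469 windows of that length, and the median CpG number was 21 in Rab windows and 7 in all. The other motifs, also searched on both strands, had these shares. The CCAAT box was in 36.96% of Rab windows against 37.49% of all, the E-box CACGTG in 8.7% against 6.42% and the cAMP response element TGACGTCA in 2.17% against 1.83%. The GC box was present for 14 of 18 matched genes called higher at 10 mM and 24 h, for 6 of 7 called lower and for 12 of 14 with no call. These matches describe letters in the windows and were not tested as sites.

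At 10 mM valproate Rab genes were called in both directions. After 24 h, 22 of 48 Rab genes were called higher (45.8%) and 9 lower (18.8%), against 31.1% higher and 25% lower over all 11604 genes tested. After 48 h, 16 were called higher (33.3%) and 10 lower (20.8%), against 27.6% and 22.3% of all genes. The median Rab change was 0.16 at 24 h and 0.09 at 48 h, beside 0.07 and 0.03 for all genes. In bulk RNA, fewer cells of a type and less RNA per cell cannot be told apart.

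The arrays of the groups did not overlap for 19 Rab genes that were higher and 8 that were lower at 24 h, where all genes gave 25.3% and 20.3%. At 48 h these counts were 14 and 9, beside 23.9% and 18.4% of all genes. A change of at least 1 was called for 6 genes upward and 1 downward at 24 h, with 8.7% and 6.48% over all genes, and for 2 upward and 1 downward at 48 h, with 6.07% and 4.65%. Higher at both times were 15 Rab genes, lower at both were 8, and 0 were called in opposite directions. Another 8 were called at 24 h only and 3 at 48 h only. The like shares over all genes were not counted, so these counts are not read as particular to Rab genes.

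**Figure D1:**
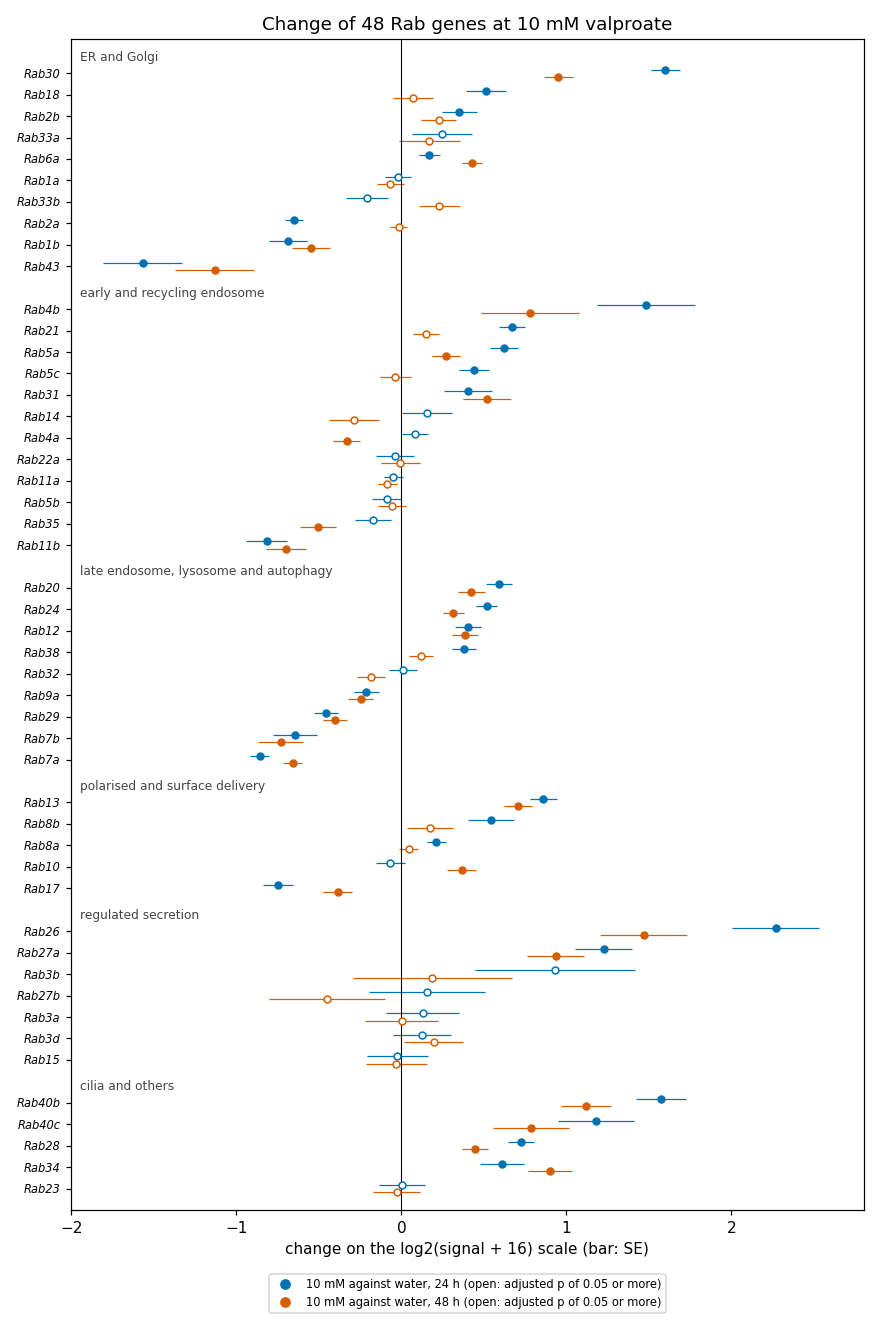
Change of the 48 tested Rab genes at 10 mM valproate against water, grouped by role, on the log2(signal + 16) scale. Points are fitted changes with SE (n = 5 per group) at 24 h and 48 h, and filled points have an adjusted p under 0.05. Rab26 lies farthest right at 2.27 and Rab43 farthest left at -1.57, both at 24 h.

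**Figure D2:**
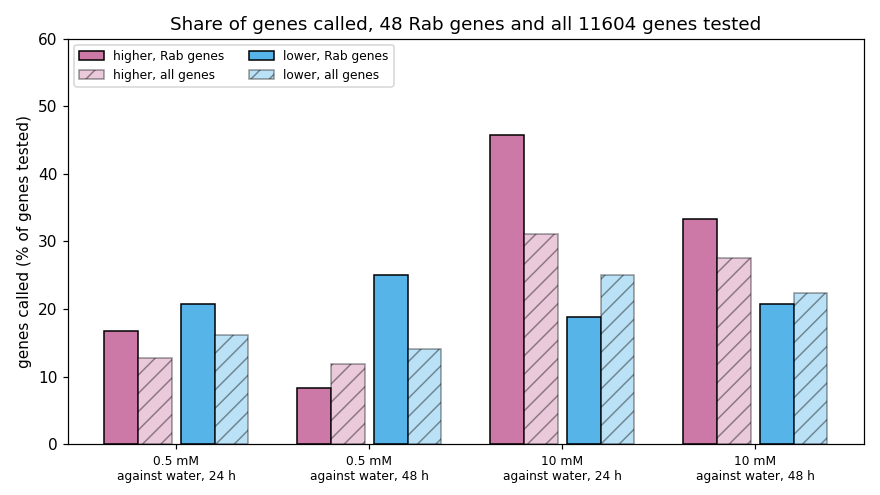
Share of genes called higher and lower in the 4 comparisons with water, as a percentage of genes tested, for 48 Rab genes (solid) and all 11604 genes (hatched). The solid bar for higher calls stands at 45.8% at 10 mM and 24 h, where the hatched one stands at 31.1%, and at 8.33% at 0.5 mM and 48 h, where the hatched one stands at 11.9%.

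Among the 7 tested Rabs of regulated secretion, Rab26 and Rab27a rose at 10 mM at both times and the other 5 did not pass the test at that dose. The share called higher was thus 28.6% at each time, beside 31.1% of all genes at 24 h and 27.6% at 48 h. Rab26, linked to the maturation of secretory granules, had the highest change against water of any tested member. Its signals at 24 h were 1657, 1990, 2144, 2029 and 1490 at 10 mM, against 187, 524, 483, 402 and 360 in water. Every 10 mM array was above every water array. The change was 2.27 ± 0.26 at 24 h (limma adjusted p = 1.07e-08) and 1.47 ± 0.26 at 48 h (adjusted p = 2.60e-05). At 48 h the signals were 1010, 1219, 1155, 1242 and 943 at 10 mM, against 394, 289.5, 502, 219 and 707 in water, again without overlap. At 0.5 mM they were 629, 388, 550.4, 751 and 415 at 24 h and 386, 647, 354, 277 and 644 at 48 h. Those ranges overlapped the ranges in water at the same times, and neither difference passed the test.

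Rab27a docks lysosome-related organelles and exosome-carrying compartments at the plasma membrane. Its 24 h signals were 629, 642, 624, 688 and 774 at 10 mM, against 288, 284, 256, 355 and 220.1 in water. Its 48 h signals were 709, 578, 637, 614 and 774 at 10 mM, against 451, 204.5, 298, 391 and 402 in water. The groups did not overlap at either time, and the change was 1.22 ± 0.17 at 24 h (limma adjusted p = 4.09e-07) and 0.93 ± 0.17 at 48 h (adjusted p = 3.98e-05). A second tested probeset of Rab27a rose too, by 1.12 at 24 h and 0.90 at 48 h. At 0.5 mM Rab27a ran between 288 and 537 at 24 h and between 385 and 447 at 48 h, with no call.

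Rab3b, a Rab of hormone and neurotransmitter release, was called only at 0.5 mM and 24 h. There it read 417, 452, 227, 364 and 627 at 0.5 mM, against 342, 189.8, 48.8, 38.1 and 324 in water, and 2 of the water arrays lay far below the other 3. The groups overlapped, and the change was 1.42 ± 0.48 (limma adjusted p = 0.031). The water mean at 24 h lay below the filter level, so the size of the change is uncertain. Without replicate 3 of water, 1 of the arrays of high actin ratio, its adjusted p was 0.107, and leaving out any of 4 other arrays also ended the call. At 10 mM Rab3b read 252, 294, 297, 203 and 373 at 24 h and 309.7, 210, 250, 372 and 326 at 48 h, which overlapped the water range, with changes of 0.93 ± 0.48 and 0.19 ± 0.48. Rab3a, Rab3d, Rab15 and Rab27b had no call in any comparison with water, and their changes at 10 mM ran from -0.45 to 0.19.

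Rab37, a secretory granule Rab studied mostly in mast cells, was too dim over all arrays to pass the filter. It is named here because of its values, which were seen before it was chosen. At 24 h it read 496, 699, 684, 709 and 709 at 10 mM, against 37.2, 53.7, 31.3, 72.2 and 50.1 in water. After 48 h the signals were 781, 714, 838, 919.7 and 795 at 10 mM, against 22.3, 46.6, 35.5, 90.6 and 78.2 in water. The dimmest 10 mM array was well above the brightest water array at both times, while 0.5 mM ran from 28.9 to 155. All 5 water arrays lay below the filter level at each time, so the size of the change has only a lower bound. With each water array set to the filter level, the 10 mM mean was at least 3.98-fold higher at 24 h and at least 4.89-fold higher at 48 h. The summed signal of mast cell and leukocyte markers was 960.1 to 1289 at 10 mM and 871 to 1196 in water at 24 h, and 814 to 1428 at 10 mM and 966 to 1638 in water at 48 h. Of its 3 tested markers, 0 were called at either time. The list pools mast cells with other leukocytes, and only 3 of its 5 genes on the array passed the filter. It can therefore neither show nor exclude a change in a rare cell, and the cell source of Rab37 was not tested.

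**Figure D3:**
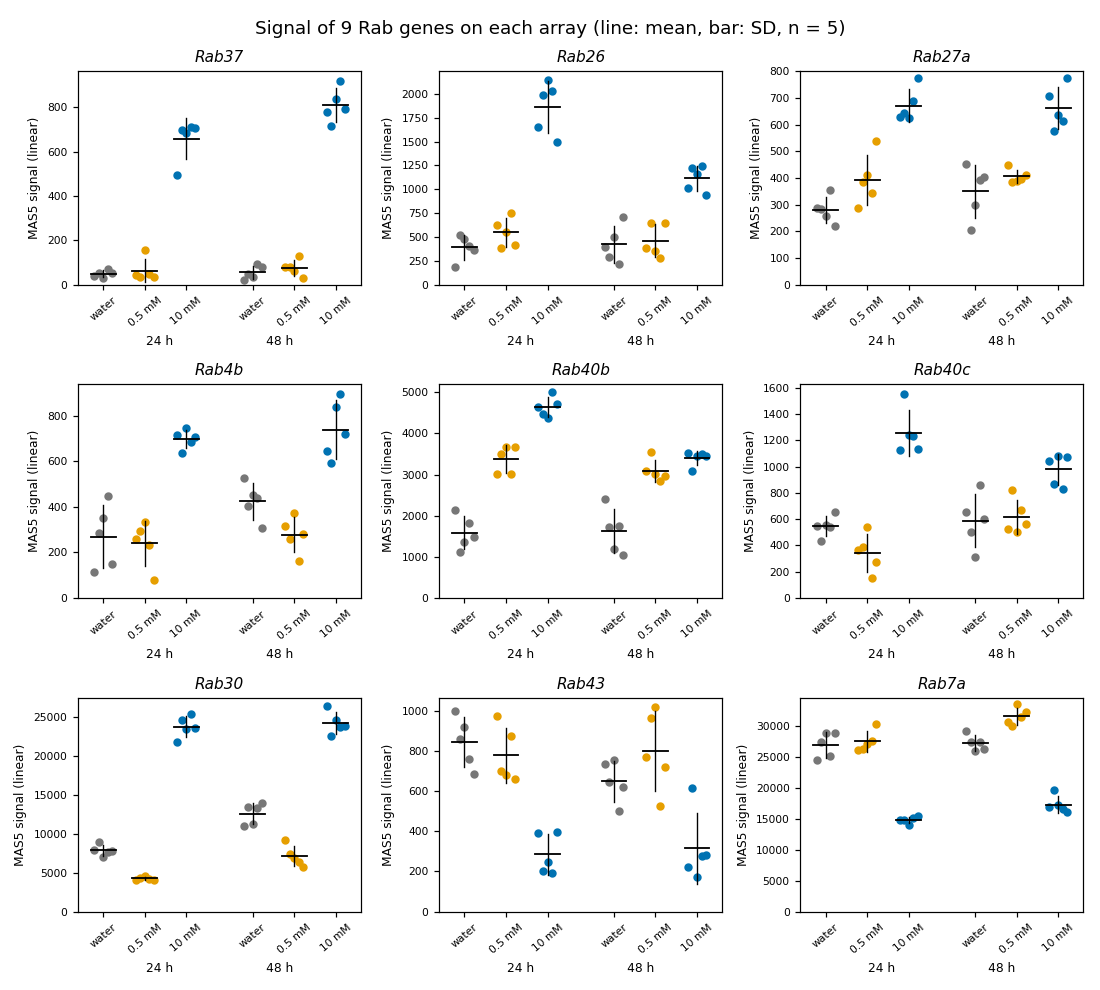
MAS5 signal of 9 Rab genes on each of the 30 arrays, in linear units, by dose (water, 0.5 mM, 10 mM) at 24 h and 48 h. Points are arrays, lines are group means and bars are SD (n = 5). Rab37 stands between 496 and 919.7 at 10 mM and at most at 155 elsewhere, while Rab30 dips at 0.5 mM and rises at 10 mM.

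Golgi and ER Rabs were called in both directions at 10 mM and 24 h. Of 10 tested, 4 were higher (40%) and 3 lower (30%), beside 31.1% and 25% of all genes. Rab30, a Rab of the Golgi, fell at 0.5 mM and rose at 10 mM. At 24 h it read 7927, 8972, 6964, 7599 and 7752 in water, 4108, 4313, 4580, 4236 and 4074 at 0.5 mM, and 21830, 24630, 23410, 25390 and 23550 at 10 mM. After 48 h its signals were 10940, 13380, 11240, 13260 and 13920 in water, 9226, 7361, 6828, 6373 and 5764 at 0.5 mM, and 26340, 22510, 24610, 23730 and 23790 at 10 mM. No 2 of the 3 doses overlapped at either time.

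The Rab30 change at 0.5 mM was -0.87 ± 0.09 at 24 h and -0.83 ± 0.09 at 48 h (limma adjusted p = 1.19e-08 and 2.77e-08). At 10 mM it was 1.60 ± 0.09 at 24 h and 0.95 ± 0.09 at 48 h (adjusted p = 6.89e-16 and 1.62e-10). Both doses were set against the same water arrays, so the pair of values is given side by side. The direct difference of 10 mM from 0.5 mM was 2.47 ± 0.09 at 24 h (adjusted p = 3.58e-20) and 1.78 ± 0.09 at 48 h. A second tested probeset of Rab30 had changes of -0.89 and -0.54 at 0.5 mM and 1.24 and 0.64 at 10 mM, in the same order of times, and all 4 were called.

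Rab43, which acts between the ER and the Golgi, had the steepest fall. The 24 h signals were 389, 200.2, 245, 193 and 398 at 10 mM, against 998, 859.6, 920.2, 758 and 687 in water, with no overlap. The 48 h signals were 223, 617, 169.7, 277 and 284 at 10 mM, against 734, 645, 753, 499 and 619.7 in water, where replicate 2 of 10 mM lay inside the water range. The change was -1.57 ± 0.24 at 24 h (limma adjusted p = 1.61e-06) and -1.13 ± 0.24 at 48 h (adjusted p = 0.000229). At 0.5 mM its signals overlapped those of water at both times.

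Rab1b and Rab1a, paired Rabs of transport from the ER to the Golgi, parted. Rab1b was 1062 to 2053 at 10 mM against 2306 to 2950 in water at 24 h, and 1802 to 2297 against 2829 to 3180 at 48 h, with no overlap. It fell by 0.69 ± 0.12 at 24 h and by 0.55 ± 0.12 at 48 h, while Rab1a changed by -0.02 at 24 h and -0.07 at 48 h with no call. Rab1a was read in the brightest range, at 46960 to 51190 at 10 mM and 40050 to 60760 in water at 24 h. The 3 probesets that matched both genes were left out, and any probeset of near-identical Rabs can share signal.

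Rab2a, a Rab of the membranes between ER and Golgi, was low at 1 time only. At 24 h it read 9325, 8327, 8988, 9911 and 10030 at 10 mM, against 14050, 14810, 14360, 14920 and 14880 in water, with no overlap. The range at 48 h was 13790 to 14850 at 10 mM and 13290 to 15240 in water. The change was -0.65 ± 0.05 at 24 h (limma adjusted p = 5.63e-12) and -0.02 at 48 h, and the difference between these effects was 0.63 ± 0.07 (adjusted p = 6.28e-07). A second probeset of Rab2a was at 0.17 at 24 h with no call. Rab18, found on lipid droplets and the ER, rose by 0.51 ± 0.12 at 24 h and had no call at 48 h. Rab2b and Rab6a rose by 0.35 and 0.17 at 24 h. Rab6a, which works in traffic to and from the Golgi, was also 0.43 ± 0.06 higher at 48 h. Its other tested probeset was called higher at 24 h, by 0.86, and was at 0.17 with no call at 48 h.

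Of 12 tested early and recycling endosome Rabs, 5 were called higher (41.7%) and 1 lower (8.33%) at 10 mM and 24 h. At 48 h, 3 were called higher (25%) and 3 lower (25%). All genes gave 31.1% and 25% at 24 h and 27.6% and 22.3% at 48 h. Rab4b, which returns receptors to the surface, read 717, 637, 747, 684 and 707 at 10 mM, against 113, 284, 349.5, 446 and 149 in water. The 10 mM arrays lay close together and above all water arrays, which spread widely. The 48 h arrays read 646, 593, 839, 897 and 720.4 at 10 mM, against 528, 402, 453, 440.1 and 306 in water, again without overlap. The change was 1.48 ± 0.30 at 24 h (limma adjusted p = 8.70e-05) and 0.78 ± 0.30 at 48 h (adjusted p = 0.034). At 0.5 mM its signals overlapped water at both times. The 48 h call was lost without any 1 of 5 arrays and under quantile normalization.

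Rab5a, the master Rab of early endosome fusion, read 17290, 15380, 16510, 16170 and 16810 at 10 mM, against 11500, 10850, 8301, 11790 and 11270 in water at 24 h. The groups did not overlap, and the change was 0.62 ± 0.08 at 24 h (limma adjusted p = 2.13e-07) and 0.27 ± 0.08 at 48 h. Rab5c, of the same trio, rose by 0.44 ± 0.09 at 24 h and was at -0.04 at 48 h, a difference that passed the test (-0.48 ± 0.13, adjusted p = 0.014). Rab5b, the other member, was at -0.09 at 24 h and -0.06 at 48 h by its brightest probeset, with no call. Its 3 dimmer tested probesets gave 0.30 to 1.59 at 24 h, and 2 of them were called. Rab21, which carries integrins, read 12840 to 14650 at 10 mM and 7909 to 8923 in water at 24 h, and rose by 0.67 ± 0.08. At 48 h it had no call, and the effects differed by -0.52 ± 0.11 (adjusted p = 0.00178).

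Rab11b fell, while the result for Rab11a, its close relative on the recycling endosome, depends on the probeset. Rab11b read 2180, 2787, 2363, 2592 and 3162 at 10 mM, against 4195, 4473, 4577, 5283 and 4468 in water at 24 h, and the groups did not overlap. Its change was -0.82 ± 0.12 at 24 h (limma adjusted p = 1.04e-06) and -0.70 ± 0.12 at 48 h. Rab11a, at 29750 to 32140 at 10 mM and 28170 to 34370 in water at 24 h, had changes of -0.05 and -0.09 by its brightest probeset, with no call. Its other tested probeset was called higher at both times, by 0.36 at 24 h (limma adjusted p = 0.0002) and 0.81 at 48 h (adjusted p = 2.18e-10). At 48 h the fast-recycling Rabs Rab35 and Rab4a were lower by 0.51 ± 0.11 and 0.33 ± 0.08, and neither was called at 24 h. Rab31, another Rab of early endosomes, rose by 0.40 ± 0.14 at 24 h and 0.52 ± 0.14 at 48 h. Its 24 h call was lost without replicate 1 of 10 mM or replicate 4 of water, and under quantile normalization. Rab22a had no call at 10 mM, and Rab14 had none by its brightest probeset. Of its 3 other tested probesets, 2 were called lower at 24 h (-0.70 and -0.36) and all 3 at 48 h (-0.34, -0.32 and -0.36).

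Of 9 tested late endosome and lysosome Rabs, 4 were called higher (44.4%) and 4 lower (44.4%) at 10 mM and 24 h. Over all genes these shares were 31.1% and 25%. Rab7a, which drives late endosomes to lysosomes, read 14850, 14880, 14040, 15090 and 15450 at 10 mM, against 24580, 27460, 28990, 25110 and 28930 in water at 24 h. The 48 h arrays read 16900, 19630, 17230, 16570 and 16170 at 10 mM, against 29280, 27400, 25940, 27440 and 26280 in water. The groups stood well apart at both times. The change was -0.86 ± 0.06 at 24 h (limma adjusted p = 5.31e-14) and -0.66 ± 0.06 at 48 h (adjusted p = 3.76e-11). A second tested probeset gave -0.36 with no call at 24 h and -0.81 with a call at 48 h.

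Rab7b, which returns cargo from late endosomes to the Golgi, read 837, 692, 825, 718 and 903 at 10 mM, against 1401, 1288, 1278, 1037 and 1249 in water at 24 h. It was lower on every 10 mM array, by 0.64 ± 0.13 at 24 h and 0.73 ± 0.13 at 48 h. Macrophage and Kupffer markers were lower in the same cultures. Their summed signal was 11980 to 13560 at 10 mM and 27920 to 31960 in water at 24 h, and 9803 to 15050 at 10 mM and 24280 to 27110 in water at 48 h. Of 7 tested markers 5 were lower and 0 higher at each time. Cd14, a lipopolysaccharide receptor and most of that sum in water, had a change of -2.06 at 24 h. At 24 h markers of stellate cells and fibroblasts were lower for 2 of 7 (28.6%), of endothelium for 1 of 4 (25%) and of bile duct for 1 of 2, with 0 higher in each. At 48 h these counts were 2, 0 and 1. Over all genes 25% were lower at 24 h and 22.3% at 48 h, so these small counts are not read as a fall of those cell types. The part of these cells in the Rab results was not tested.

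Other members of that class changed less. Rab29, a partner of the kinase LRRK2, fell by 0.46 ± 0.07 and 0.40 ± 0.07 at 24 h and 48 h, and Rab9a, which retrieves receptors to the Golgi, fell by 0.21 and 0.25. The Rab9a call at 24 h was lost without any 1 of 3 arrays, and that of Rab6a at 24 h without either of 2. Rab20, of endosome and phagosome maturation, rose by 0.59 ± 0.08 and 0.42 ± 0.08. Rab24, linked to autophagy, read 8731 to 9928 at 10 mM and 5748 to 7183 in water at 24 h, and rose by 0.52 ± 0.07 and 0.31 ± 0.07. Rab12, which sends transferrin receptor to lysosomes, rose by 0.41 and 0.39. Rab38, of lysosome-related organelles, rose by 0.38 ± 0.07 at 24 h and had no call at 48 h, and its relative Rab32 had none at 10 mM.

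Among Rabs of polarised delivery, 3 of 5 were called higher (60%) and 1 lower (20%) at 24 h, against 31.1% and 25% of all genes. Rab13, which serves tight junctions, read 2868, 2804, 3305, 3039 and 2801 at 10 mM, against 1594, 1621, 1584, 1683 and 1634 in water at 24 h. The groups did not overlap, and the change was 0.86 ± 0.08 at 24 h and 0.71 ± 0.08 at 48 h (limma adjusted p = 2.39e-10 and 2.04e-08). Rab17, an epithelial Rab of recycling and transcytosis, went the other way. It read 1911, 1768, 1986, 2090 and 1994 at 10 mM, against 3152, 3069, 3957, 3100 and 3208 in water at 24 h, a fall of 0.75 ± 0.09 that measured 0.39 ± 0.09 at 48 h. Both groups were separate at both times. Rab8b and Rab8a, Rabs of surface delivery, rose by 0.54 ± 0.14 and 0.21 ± 0.06 at 24 h and were not called at 48 h. Rab10, which inserts carriers such as the glucose transporter GLUT4, was 0.37 ± 0.09 higher at 48 h by its brightest probeset. Its other probeset was 0.89 higher at 24 h and not called at 48 h.

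The last class holds ciliary Rabs and the Rab40 branch, which carries a SOCS box and joins ubiquitin ligases. In it 4 of 5 were called higher (80%) and 0 lower at each time. All genes gave 31.1% higher and 25% lower at 24 h and 27.6% and 22.3% at 48 h. Rab40b read 2142, 1124, 1356, 1824 and 1493 in water, 3008, 3509, 3671, 3018 and 3677 at 0.5 mM, and 4630, 4465, 4381, 4994 and 4716 at 10 mM at 24 h. After 48 h its signals were 2403, 1715, 1203, 1743 and 1051 in water, 3088, 3545, 3002, 2831 and 2961 at 0.5 mM, and 3524, 3095, 3452, 3501 and 3439 at 10 mM. Neither dose overlapped with water at either time, and the doses were separate from each other at 24 h only.

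Rab40b was thus the 1 member called higher at both doses and both times. Its change was 1.11 ± 0.15 at 0.5 mM and 1.57 ± 0.15 at 10 mM at 24 h (limma adjusted p = 2.02e-06 and 2.19e-10). At 48 h it was 0.98 ± 0.15 and 1.12 ± 0.15, against the same water arrays. The direct difference between the doses was 0.46 ± 0.15 at 24 h (adjusted p = 0.011). Its second tested probeset was called higher in 3 of the 4 comparisons with water, and at 0.5 mM and 48 h it gave 0.45 with no call.

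Rab40c read 1124, 1557, 1241, 1230 and 1134 at 10 mM, against 549.9, 434, 557, 542 and 654 in water at 24 h, with no overlap. Its arrays at 48 h read 1040, 870.5, 1080, 834 and 1070 at 10 mM, against 658, 506, 311, 863 and 601 in water, where 1 water array reached into the 10 mM range. The change was 1.18 ± 0.23 at 24 h (limma adjusted p = 6.23e-05) and 0.79 ± 0.23 at 48 h (adjusted p = 0.00581). At 0.5 mM and 24 h it read 367, 391, 541, 151 and 277, a change of -0.74 ± 0.23 whose call was lost without replicate 4. Rab34, needed for cilium formation in mice, rose by 0.61 ± 0.13 and 0.90 ± 0.13 at 24 h and 48 h, while its second tested probeset gave 0.33 and -0.28 with no call. Rab28, another ciliary Rab, rose by 0.72 ± 0.08 and 0.45 ± 0.08. Rab23, a Rab of hedgehog signalling, had no call in any comparison with water.

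At 0.5 mM fewer members passed the test than at 10 mM at each time. After 24 h, 8 of 48 were called higher (16.7%) and 10 lower (20.8%), against 12.7% and 16.1% of all genes. After 48 h, 4 were higher (8.33%) and 12 lower (25%), against 11.9% and 14.1%. The median Rab change at 48 h was -0.12, beside -0.01 for all genes. Besides Rab3b and Rab40b, the rises at 24 h were Rab18 (0.39), Rab13 (0.37), Rab5c (0.31), Rab11a (0.28), Rab1a (0.24) and Rab20 (0.22). Falls at 24 h were led by Rab30, Rab40c, Rab33b (-0.50), Rab22a (-0.45) and Rab6a (-0.42), followed by Rab8b (-0.38), Rab35 (-0.37) and Rab10 (-0.36), and the other 2 were Rab24 and Rab5b.

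At 48 h the falls at 0.5 mM were led by Rab30 (-0.83), Rab14 (-0.58), Rab8b (-0.47), Rab32 (-0.45), Rab35 (-0.43), Rab21 (-0.42), Rab24 (-0.38) and Rab13 (-0.38). The rises were Rab40b, Rab33b (0.45), Rab5b (0.32) and Rab7a (0.21). Rab13 was on opposite sides of water at the 2 times. At 0.5 mM it ran from 1885 to 2501 at 24 h, above the water range of 1584 to 1683, and from 1506 to 1790 at 48 h, below the water range of 1974 to 2311. The difference between these effects was -0.75 ± 0.12 (limma adjusted p = 0.00012).

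The results at 0.5 mM rest partly on the arrays of high actin ratio. Without all 3 of them, 7 genes were lower at 48 h, and Rab33b (0.22), Rab5b (0.21), Rab8b (-0.37), Rab11b (-0.25), Rab12 (-0.21), Rab1b (-0.29) and Rab5c (-0.27) lost their calls there. At 24 h Rab1a (0.16), Rab20 (0.17), Rab5b (-0.20) and Rab8b (-0.25) did. Without replicate 3 of water alone, 4 genes were called higher at 24 h. No call at 10 mM against water was lost without the 3 arrays. Only replicate 3 of water at 24 h enters those comparisons, so the check says little about 10 mM. Replicates 3 and 4 of 0.5 mM at 48 h were the rest, so that group was smaller in the fit.

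Set side by side, with the shared water arrays in mind, both doses were higher for Rab13, Rab18, Rab20, Rab40b and Rab5c at 24 h. Rab24, Rab30, Rab40c, Rab6a and Rab8b were lower at 0.5 mM and higher at 10 mM. For Rab6a and Rab8b the falls at 0.5 mM rest on the brightest probeset. Their other tested probesets had no call there, at 0.06 for Rab6a and 0.12 and -0.22 for Rab8b. The Rab8b call at 0.5 mM and 24 h was lost in 21 of 41 alternatives. That of Rab20 was lost in 17, among them leaving out any 1 of 13 arrays. Those of Rab18 and Rab40c were lost in 2 each, and those of Rab5c and Rab6a in 1 each. At 48 h Rab40b was higher at both doses and Rab11b, Rab1b and Rab35 were lower at both. Lower at 0.5 mM and higher at 10 mM were Rab12, Rab13, Rab24 and Rab30. Rab7a was higher at 0.5 mM and lower at 10 mM, though its 0.5 mM change turned to -0.014 with the mean of its probesets. Rab24 was an example whose doses did not overlap at 24 h. It ran from 5748 to 7183 in water, from 4723 to 5319 at 0.5 mM and from 8731 to 9928 at 10 mM.

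The direct test of 10 mM against 0.5 mM does not use the water arrays in its difference, though it shares the treated arrays with the comparisons above. At 24 h it called 22 of 48 Rab genes higher and 11 lower, against 32.9% and 26.4% of all genes. At 48 h it called 21 higher and 10 lower, against 30% and 23.8%. The leading rises at 24 h were Rab30 (2.47), Rab40c (1.91), Rab26 (1.77), Rab4b (1.61), Rab8b (0.92), Rab24 (0.85), Rab27a (0.77) and Rab21 (0.61). The leading falls were Rab43 (-1.45), Rab11b (-0.997), Rab7a (-0.89), Rab1b (-0.69), Rab2a (-0.67), Rab7b (-0.63), Rab17 (-0.60) and Rab29 (-0.50). At 48 h Rab30 (1.78), Rab4b (1.39), Rab26 (1.31) and Rab13 (1.09) led the rises, and Rab43 (-1.40), Rab7a (-0.87) and Rab7b (-0.56) the falls.

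Few effects of 10 mM differed between the times. The interaction called 2 of 48 upward and 4 downward, against 6.63% and 6.2% of all genes. Rab2a (0.63) and Rab10 (0.43) had a more positive change at 48 h than at 24 h, and Rab30 (-0.65), Rab21 (-0.52), Rab5c (-0.48) and Rab4a (-0.41) a less positive or more negative one. For Rab10 and Rab2a the call depends on the probeset. The other tested probeset of Rab10 gave -0.69 with a call, and that of Rab2a gave -0.26 with no call. For 0.5 mM the interaction called 4 upward and 11 downward, against 12% and 9.69% of all genes. Rab33b (0.94) and Rab5b (0.60) were highest, and Rab14 (-0.83), Rab33a (-0.79), Rab13 (-0.75) and Rab5c (-0.62) lowest. Only 3 of the 11 downward calls were made without the arrays of high actin ratio.

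In water alone, 48 h against 24 h, 4 Rab genes were called higher and 1 lower, against 5.11% and 4.96% of all genes. Rab30 was higher by 0.67 ± 0.09 (limma adjusted p = 4.22e-06), Rab7b by 0.46, Rab13 by 0.38 and Rab21 by 0.26, and Rab33b was lower by 0.43. The water cultures at 48 h and 24 h did not overlap for 8 Rab genes that were higher and 1 that was lower, these 5 among them. The like share over all genes was not counted, so these counts are not read as many or few. The Rab21 call was lost with a replicate block (adjusted p = 0.0506) and without any 1 of 9 arrays, that of Rab7b without any 1 of 7 and that of Rab33b without any 1 of 6.

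Probesets of 1 gene did not always move alike. Of 22 genes with several tested probesets, 6 had probesets of different sign at 10 mM and 24 h, though 0 had called probesets of both signs in that comparison or at 48 h. Rab14, described above, was at 0.15 by its brightest probeset at 24 h. In the comparisons that involve 0.5 mM, called probesets of both signs were found for Rab5b at each time against water, for Rab11a and Rab2a at 24 h and Rab2a and Rab5b at 48 h between the doses, and for Rab10, Rab5b and Rab6a in the interaction. The transcript that each probeset reads was not examined.

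**Figure D4:**
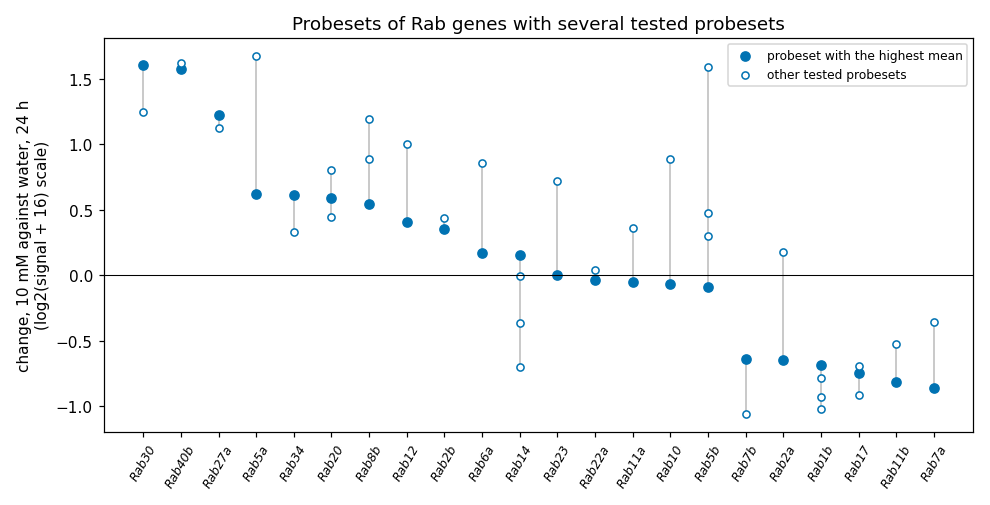
Change at 10 mM valproate against water at 24 h for every tested probeset of the 22 Rab genes with several, on the log2(signal + 16) scale. Filled points are the brightest probeset of a gene, open points the others, and grey lines join them. Rab5a spans 0.62 to 1.67 and Rab5b -0.09 to 1.59, while the probesets of Rab40b and Rab27a lie close together.

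Other genes of Rab traffic are given by list at 10 mM against water, where 31.1% of all genes were higher and 25% lower at 24 h and 27.6% and 22.3% at 48 h. No test compares the lists with other genes or with each other. The first list holds enzymes that attach lipid tails or process proteins bearing them, and chaperones that carry Rabs. Of its 7 tested genes, 1 was higher and 3 lower (42.9%) at 24 h. At 48 h 1 was higher and 4 lower (57.1%). The list medians were -0.11 at 24 h and -0.30 at 48 h. Rabggtb, the catalytic subunit of Rab geranylgeranyl transferase, read 6991 ± 613 at 10 mM against 11880 ± 982 in water at 24 h (SD, n = 5), a change of -0.76 ± 0.11 (limma adjusted p = 5.14e-07). Its partner subunit Rabggta changed by -0.34, and Gdi2, which shuttles inactive Rabs, by -0.35. Rce1, a protease that acts on proteins bearing a lipid tail, rose by 0.47 ± 0.08.

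Rab exchange factors were called higher for 8 (26.7%) and lower for 13 (43.3%) of 30 at 24 h, with a median of -0.40, and higher for 9 (30%) and lower for 5 (16.7%) at 48 h, with a median of 0.07. Set against 0.5 mM at 24 h, the 10 mM cultures had 10 higher and 9 lower, with a median of -0.05. In water alone 0 were higher and 4 lower at 48 h than at 24 h, with a median of -0.28. Ccz1, part of the complex that activates Rab7, read 2746 ± 155 at 10 mM against 6020 ± 353 in water at 24 h and changed by -1.13 ± 0.06 (limma adjusted p = 2.27e-16). Hps1, part of the factor for Rab32 and Rab38, changed by -1.45 ± 0.11. Rin3 and Als2cl, factors linked to Rab5, changed by -1.89 ± 0.24 and -1.50 ± 0.16, and Dennd4b, linked to Rab10, by -1.90 ± 0.53.

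Of 28 GTPase-activating proteins, 12 were higher (42.9%) and 4 lower (14.3%) at 24 h, and 12 were higher and 2 lower (7.14%) at 48 h. The medians were 0.27 and 0.25. Grtp1 read 2693 ± 134 at 10 mM against 893 ± 63.2 in water at 24 h and rose by 1.58 ± 0.09 (limma adjusted p = 1.36e-15). Tbc1d9 rose by 1.66, Tbc1d16, which acts on Rab4, by 1.57 and Tbc1d31 by 1.52, while Tbc1d17 changed by -1.31.

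Effectors of Rabs had 17 of 49 higher (34.7%) and 9 lower (18.4%) at 24 h, and 17 higher and 7 lower (14.3%) at 48 h, and at 24 h the higher share was near that of all genes. Rilpl1 rose by 1.61 ± 0.10, Rab11fip4, which binds Rab11, by 1.30 ± 0.28 and Micall2, which binds Rab13 and Rab8, by 1.30 ± 0.24. Rabep2, an early endosome effector, changed by -1.28 and Osbpl1a, a Rab7 effector that senses sterol, by -1.23. The medians of 0.09 and 0.20 stood beside 0.07 and 0.03 for all genes.

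The Arf family, the other GTPases of vesicle budding and cilia, had 11 of 17 higher (64.7%) and 2 lower (11.8%) at 24 h and 9 higher (52.9%) and 3 lower (17.6%) at 48 h, with medians of 0.45 and 0.37. Arl3, a ciliary cargo-release switch, read 6880 ± 688 at 10 mM against 1576 ± 106 in water at 24 h and rose by 2.11 ± 0.10 (limma adjusted p = 1.02e-17). Arf2 rose by 1.85 ± 0.12, Arl6, which recruits the BBSome to membranes, by 1.33 ± 0.10, Arl10 by 0.90 and Arl15 by 0.86. SNAREs, the proteins that fuse vesicles with their targets, had 16 of 34 higher (47.1%) and 5 lower (14.7%) at 24 h and 15 higher (44.1%) and 5 lower at 48 h. Stx11 rose by 1.15, Vamp5 by 1.05, Stx6 by 1.02, Snap23 by 0.98 and Vamp4 by 0.91.

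**Figure D5:**
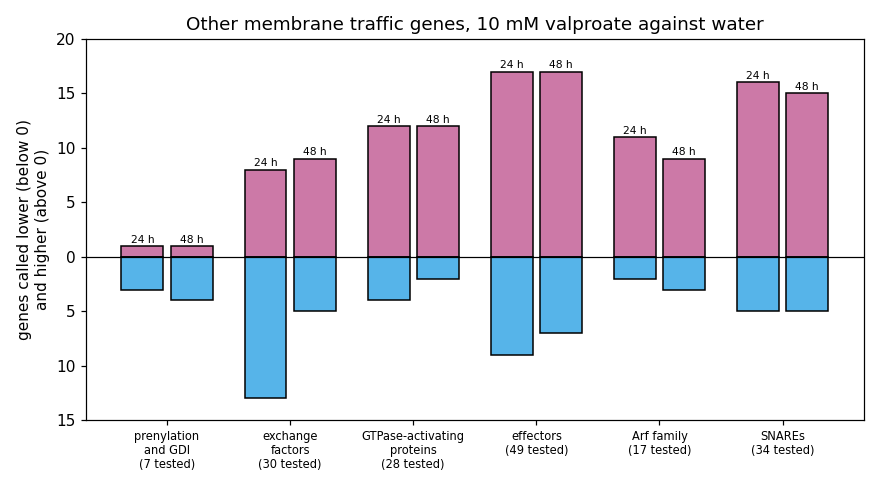
Numbers of other membrane traffic genes called higher (above 0) and lower (below 0) at 10 mM valproate against water, at 24 h (left bar) and 48 h (right bar) for each list, with the number of tested genes under each name. Exchange factors have 13 lower calls at 24 h and 5 at 48 h, and the Arf family has 11 higher and 2 lower at 24 h.

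The other 7 members below the filter were Rab3c, Rab6b, Rab9b, Rab19, Rab25, Rab36 and Rab39a. Rab36 read 195, 369, 197, 168 and 143 at 10 mM, against 170.1, 30.7, 96.3, 109.5 and 12.8 in water at 24 h, which overlap. Rab6b, the neuronal relative of Rab6a, read 76.7, 174, 435, 263 and 275 at 10 mM, against 46.8, 180.2, 49.8, 62.1 and 73.6 in water, which overlap too. In the fit without the filter they were called higher at 10 mM and 24 h, by 1.43 ± 0.47 and 1.37 ± 0.45 (limma adjusted p = 0.017 for each). Only 1 of 5 water arrays reached the filter level for each, so these sizes are uncertain, and with water arrays below that level set to it the changes were 0.35 and 0.41. Rab3c, Rab9b, Rab19, Rab25 and Rab39a had no such call.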

How the data were processed

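Total RNA of 30 cultures was labelled with biotin and read on 1 array each, per the labels' protocols. The deposited values are linear signal intensity made by the authors with MAS5, per the submitters' processing notes, with no version given in the sources used here. Trimmed means were alike on all arrays, so the deposited scaling was kept. It sets array totals equal and would hide a shift of most genes to 1 side. The number of arrays limits the precision.

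Control probesets (57) were dropped. Symbols came from the platform table, where 20826 probesets have 1 symbol, 436 have several and 9780 have none. Signals became log2(signal + 16), which understates changes of dim genes, and a probeset was tested when its mean reached the 30th percentile (7.39). All groups entered 1 limma 3.58.1 model under R 4.3.3 (lmFit, eBayes with trend, 24 residual degrees of freedom), two-sided, with Benjamini-Hochberg adjustment over the 21729 probesets. Alternatives were pseudocounts of 1 and 64, quantile normalization, other filters, eBayes with no trend, array weights, a fit on only the compared groups, the mean of a gene's probesets, a fold minimum, a replicate block, leaving out each array and leaving out arrays with an actin ratio above 2. The pipeline was tested on simulated data for 10 mM against water at 24 h. It recovered 37.3% of changes of 0.5, 80.6% of changes of 1 and 95.5% of changes of 2, with 17 false calls. The simulation changed far fewer probesets than were called in the data, so these rates need not hold there. A missing call therefore does not show that a small change was absent.

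Running numbers in the titles place the arrays in runs of 6. Deviations from the group mean correlated at a median of 0.003 within a run (-0.14 to 0.39), so runs were not used to pair arrays. Named with values were members with a change of at least 1 against water, up to 12 rises and 12 falls at 10 mM, up to 8 elsewhere, and up to 5 called genes of each list. Rab7a, Rab2a, Rab5a, Rab7b, Rab11b, Rab13 and Rab17 are given by array, and Rab37, Rab36 and Rab6b below the filter are named, after their values were seen. Members and lists were chosen with earlier results of these data known. Promoters are RefSeq windows. Python 3.11.15 with matplotlib 3.10.9 drew the figures.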

Additional observations from a re-analysis of the deposited data

Results flagged for a closer look

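Of 48 groups of 5 arrays, for the 8 members with a change of at least 1 against water, 3 held 1 array far from the other 4, and chance marks about 1 in 20 groups. Rab3b read 33.81 on replicate 3 of 0.5 mM at 48 h, an array of high actin ratio, while the other 4 ran from 276 to 403. Rab40b read 3095 on its lowest array of 10 mM at 48 h, beside 3439 to 3524 on the others. Rab4b read 79.14 on its lowest array of 0.5 mM at 24 h, beside 231 to 334.

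The effect of valproate differed between 48 h and 24 h by the interaction test (limma, adjusted p under 0.05) for 6 members at 10 mM and 15 at 0.5 mM. At 10 mM 4.17% of members were called upward and 8.33% downward, against 6.63% and 6.2% of all genes. At 0.5 mM these shares were 8.33% and 22.9%, against 12% and 9.69%. At 10 mM the 48 h effect exceeded that at 24 h by 0.63 for Rab2a and 0.43 for Rab10. It differed by -0.65 for Rab30, -0.52 for Rab21, -0.48 for Rab5c and -0.41 for Rab4a. At 0.5 mM the positive differences were 0.94 for Rab33b, 0.60 for Rab5b, 0.47 for Rab10 and 0.30 for Rab6a. The negative ones were -0.83 for Rab14, -0.79 for Rab33a, -0.75 for Rab13, -0.62 for Rab5c, -0.54 for Rab11b, -0.51 for Rab18, -0.47 for Rab21, -0.43 for Rab32, -0.42 for Rab1a, -0.32 for Rab28 and -0.25 for Rab11a. Most of the calls at 0.5 mM were not made without the 3 arrays of high actin ratio. Called probesets of both signs were found for Rab10, Rab5b and Rab6a at 0.5 mM and for Rab10 at 10 mM. The other tested probeset of Rab2a gave -0.26 at 10 mM with no call.

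Among the members left out by the filter on dim signal, the fit without the filter (limma) gave higher values at 10 mM than in water for Rab37, by 3.40 at 24 h and 3.64 at 48 h. Its water arrays were all below the filter level, and with them set to that level the rise was at least 3.98-fold at 24 h and at least 4.89-fold at 48 h. At 24 h it did so for Rab36, by 1.43, and for Rab6b, by 1.37. The groups overlapped for both, and with water arrays below the filter level set to it the changes were 0.35 and 0.41. At 48 h Rab36 was at 0.05 and Rab6b at 1.13, with no call. Against the same dim water arrays at 24 h, Rab36 was also at 1.26 at 0.5 mM, with no call.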

How the results depend on the processing

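Of 181 calls on single members, 118 were kept in every alternative run for them, up to 41 without the fold minimum, 57 were lost in at least 1 and 13 changed sign in at least 1. Of all calls, 31 were lost without some 1 array. The counts at 10 mM against water stayed within 1.5 times in all but the fold minimum, and a replicate block by run left 22 higher and 9 lower at 24 h and 16 and 10 at 48 h. That block ended the calls of Rab8a between the doses at 48 h (0.14, adjusted p = 0.0578) and of Rab21 in water (0.26, adjusted p = 0.0506). A second call rule, a change of at least 1, left 6 higher and 1 lower at 24 h and 2 and 1 at 48 h. It left 2 and 0 at 0.5 mM at 24 h, 0 and 0 at 48 h, 4 and 1 between the doses at each time, and 0 either way in both interactions and in water. With the mean of a gene's probesets, 6 were lower at 0.5 mM and 24 h and 2 higher at 48 h. That setting gave 1 higher in each interaction and 8 higher in water.

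Leaving out the 3 arrays of high actin ratio gave 7 lower at 0.5 mM and 48 h, and 2 higher and 3 lower in the 0.5 mM interaction. With only the compared groups, 4 were higher at 0.5 mM and 24 h, 4 in the 10 mM interaction, and 7 lower in the 0.5 mM interaction. The 10 mM interaction gave 4 higher with the 50th percentile filter and 4 higher and 8 lower with array weights. In water the 50th percentile filter gave 8 higher, and no trend or only the compared groups 0 lower. Without single arrays the ranges were 4 to 9 higher at 0.5 mM and 24 h, 7 to 12 lower in the 0.5 mM interaction, and 2 to 7 higher and 0 to 1 lower in water.

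The mean of probesets turned the sign for Rab22a (0.048) and Rab5b (0.29) at 0.5 mM and 24 h, and for Rab5b (-0.25) and Rab7a (-0.014) at 48 h. Between the doses it did so for Rab22a at 24 h (-0.21) and for Rab2a (0.072) and Rab5b (0.60) at 48 h. In the interactions it did so for Rab10 at 10 mM (-0.13) and at 0.5 mM for Rab10 (-0.058), Rab5b (-0.54) and Rab6a (-0.43). Quantile normalization turned Rab11a (0.030) and Rab1a (0.071) between the doses at 24 h. The cause was not tested. For dim members such as Rab37 the added constant and the filter limit what can be measured.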
